A study of Mus musculus with 12 samples.

Results

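The 10 genes described here form the core of the transforming growth factor beta (TGF-beta) pathway: the ligands Tgfb1, Tgfb2 and Tgfb3, the receptors Tgfbr1, Tgfbr2 and Tgfbr3, and the Smads Smad2, Smad3, Smad4 and Smad7. They were chosen by name, with earlier results of these data known, among the 18193 genes with an array probe set of their own. They are covered by 25 of the 45037 probe sets tested. Each gene is represented by the probe set with the highest mean over the 12 arrays. Its other probe sets are described more briefly.

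The arrays hold RNA of monolayer cultures of MC38, a tumor line from a mouse colon carcinoma. Cells were exposed to 100 nM GDC-0623, an inhibitor of the ERK-activating kinase MEK, or to its solvent DMSO, and RNA was taken after 24 h and 72 h. The 4 groups, 24 h GDC-0623, 24 h DMSO, 72 h GDC-0623 and 72 h DMSO, hold 3 arrays each, which the submitters call biological replicates of the line, so p-values measure the spread between these arrays. All arrays come from 1 cell line, and the comparisons ask how MEK inhibition changes the RNA levels of tumor cells at each time point.

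TGF-beta ligands are secreted in a latent form and have to be released before they can bind. The active ligand binds the type II receptor Tgfbr2, which recruits and phosphorylates the type I receptor Tgfbr1. Tgfbr1 then phosphorylates Smad2 and Smad3, which enter the nucleus with Smad4, while Smad7 blocks the type I receptor as part of a negative feedback. In the colon epithelium the pathway is known for restraining growth, and in carcinomas for epithelial-mesenchymal transition, matrix production and suppression of immune cells.

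The promoter windows shown first are those of Tgfb2 and Tgfbr2, which had the largest drug effects among genes with a matched RefSeq promoter window (GRCm38.p6). Tgfb3 had no matched window, although its 24 h change of 1.73 was larger than the 1.07 of Tgfbr2. The window of Tgfb1 is shown because it is the ligand whose drug effect did not pass the test. RefSeq windows were matched for 5 of the 10 genes, and each run below is the 250 bases before the start. Capitals mark every match, on either strand, to the half-site TGACG of a cAMP response element or to the E-box letters CACGTG. They also mark the TATA box, searched as TATAAA, and the GC box, searched as GGGCGG. The same holds for the EGR element GCGNGGGCG, the AP-1 element with the letters TGANTCA, and the core CCGGAAG of ETS factors.
Tgfb2, chr1:186705990-186706239, minus strand: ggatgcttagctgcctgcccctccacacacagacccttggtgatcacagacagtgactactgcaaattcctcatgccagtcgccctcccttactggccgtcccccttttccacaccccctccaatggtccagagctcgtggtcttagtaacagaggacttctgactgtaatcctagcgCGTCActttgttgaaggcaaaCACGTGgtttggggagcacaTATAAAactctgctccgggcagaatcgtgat
Tgfbr2, chr9:116175364-116175613, minus strand: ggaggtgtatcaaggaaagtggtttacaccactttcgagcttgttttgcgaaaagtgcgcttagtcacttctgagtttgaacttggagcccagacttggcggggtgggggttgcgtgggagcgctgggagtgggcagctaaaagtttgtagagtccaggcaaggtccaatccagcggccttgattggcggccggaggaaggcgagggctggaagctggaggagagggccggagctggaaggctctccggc
Tgfb1, chr7:25686752-25687001, plus strand: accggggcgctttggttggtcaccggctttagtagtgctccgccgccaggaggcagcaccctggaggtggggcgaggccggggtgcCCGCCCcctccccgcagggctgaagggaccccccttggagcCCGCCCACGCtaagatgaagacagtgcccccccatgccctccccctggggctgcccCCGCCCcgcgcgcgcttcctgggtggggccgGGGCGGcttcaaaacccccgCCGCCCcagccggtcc

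The Tgfb2 window held a cAMP response element half-site that begins 72 bases before the start, the E-box 51 bases before it and a TATA box 31 bases before it. Among all 32851 windows of this length, 17.8% held the half-site, 6.02% the E-box and 12.4% the TATA box. The annotated span of Tgfb2 reaches further 5′ than this start. The Tgfb1 window had no TATA box match but 5 GC boxes, of which 1 overlaps an EGR element 122 bases before the start. GC boxes were found in 32.7% of windows and the EGR element in 4.7%. None of the capitalised motifs was found in the Tgfbr2 window. A Smad box (CAGAC), which was searched too, was found in 42.2% of windows, with 2 matches in that of Tgfb2 and 1 in that of Tgfbr2. AP-1 elements (6.75% of windows), ETS cores (6.91%) and TEAD elements (GGAATG, 12.6%) matched none of the 3 windows. These are matches of letters and say nothing on whether a factor binds there.

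The values are log2 expression values after robust multichip averaging (RMA), with array medians of 4.63 to 4.7. Genes of other organs, such as Alb and Myh6, gave group means of 2.54 to 6.33 with a median of 3.62, which marks the background range. In these arrays the epithelial markers did not stand out from it. Cdh1 had group means of 2.61 to 2.72, and the mean level of 10 epithelial markers was 3.98 to 4.01 on the 24 h GDC-0623 arrays, 3.99 to 4.06 on the 24 h DMSO arrays, 3.87 to 4.03 on the 72 h GDC-0623 arrays and 4 to 4.02 on the 72 h DMSO arrays. Vim, a filament protein of mesenchymal cells, had group means of 13.57 to 13.77. The 9 mesenchymal markers, Vim among them, were not uniform. Thy1 and Col1a1 lay in the background range in every group and Acta2 did so in DMSO. The means of the other mesenchymal markers lay above that range in every group. The first principal component (58.6% of the variance) set 72 h GDC-0623 replicate 1 apart, at 77.4 against 44.8 and 49.8 for the other 72 h GDC-0623 arrays, so the 72 h drug effects of the core genes that passed the test are given without this array too. No 2 arrays held identical values. In bulk RNA of this kind, fewer cells with a transcript and less transcript per cell cannot be told apart.

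At 24 h, GDC-0623 raised 3 of the 10 genes (Tgfb2, Tgfb3 and Tgfbr2) and lowered 1 (Tgfbr3) at an adjusted p under 0.05 in limma, with the adjustment over all probe sets. Over all genes, 13.3% were called higher and 8.23% lower in the same comparison. The median log2 fold change was 0.06 over the 10 genes and −0.03 over all genes. Of the 25 probe sets of these genes, 7 were higher and 4 lower, against 9.29% and 7.43% of all probe sets. Called changes of at least 2-fold concerned 3 of the 10 genes, against 1.84% of all genes. At 72 h, 4 of the 10 genes were higher (Tgfb2, Tgfb3, Tgfbr2 and Tgfbr3) and 1 was lower (Tgfbr1), against 13.8% and 12.4% of all genes. The median was then 0.15 over the 10 genes and −0.03 over all genes, and 2 of the 10, against 3.75% of all genes, were called with a change of at least 2-fold. Of the 25 probe sets, 7 were higher and 1 lower at 72 h, against 10.1% and 10.2% of all probe sets. The 10 genes were chosen with earlier results of these data known, so these counts are not independent evidence.

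**Figure D1:**
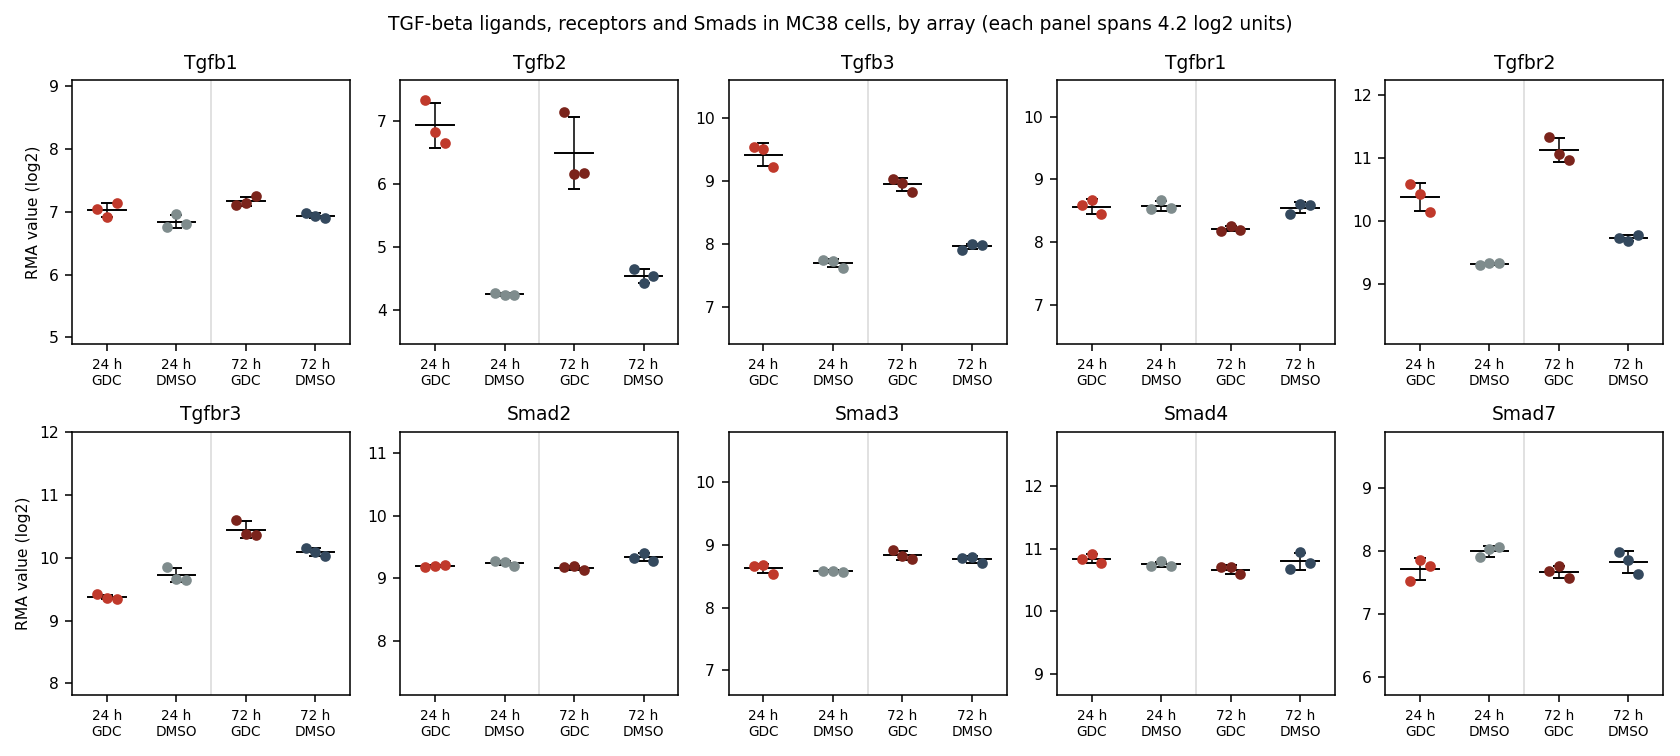
RMA values (log2, y axis) of the representative probe set of each gene on the 3 arrays of each group (points), with group mean (line) and SD (bar), for GDC-0623 and DMSO at 24 h and 72 h. Tgfb2, Tgfb3 and Tgfbr2 show GDC-0623 arrays above DMSO arrays at both times, Tgfbr3 lies below DMSO at 24 h and above it at 72 h, and no Smad passed the test.

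Tgfb2 showed the largest drug effect of the 10 genes. This ligand depends on betaglycan (Tgfbr3) for high-affinity binding to the type II receptor. Its values at 24 h were 7.34, 6.83 and 6.65 on the GDC-0623 arrays and 4.27, 4.23 and 4.23 on the DMSO arrays. At 72 h they were 7.15, 6.16 and 6.17 with GDC-0623 and 4.65, 4.43 and 4.54 with DMSO. Every GDC-0623 array lay above every DMSO array of its time, and the DMSO values lay within the background range. So did 6.16 and 6.17 of the 72 h GDC-0623 values. The log2 fold change was 2.70 ± 0.15 (SE, 3 arrays per group) at 24 h, or 6.48-fold (adjusted p = 9.77e-06), and 1.95 ± 0.23 at 72 h, or 3.87-fold (adjusted p = 0.000551). With DMSO in the background range, these folds may understate the change. Without 72 h GDC-0623 replicate 1, which had the highest value of its group, the 72 h change was 1.63 (adjusted p = 4.19e-05).

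The group means of Tgfb2 ran from 6.94 ± 0.36 (SD) in 24 h GDC-0623 and 6.49 ± 0.57 in 72 h GDC-0623 down to 4.54 ± 0.11 in 72 h DMSO and 4.24 ± 0.02 in 24 h DMSO. Under GDC-0623, the 72 h level on the representative probe set did not differ from the 24 h level by the test (−0.45, 95% interval −1.04 to 0.15, adjusted p = 0.355). Without 72 h GDC-0623 replicate 1 this difference was −0.78 (adjusted p = 0.0403). In DMSO the 72 h level was higher by 0.30 (adjusted p = 0.034), a call that was lost under 8 of the 14 alternatives. The drug effect at 72 h was smaller than that at 24 h by a difference of −0.74, which missed the threshold (adjusted p = 0.292). Without 72 h GDC-0623 replicate 1 the same difference was −1.07 (adjusted p = 0.0161).

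The other probe sets of Tgfb2 showed the drug effect in the same direction with smaller sizes. Probe set 1450923_at rose by 2.68 at 24 h and 1.74 at 72 h (adjusted p = 1.2e-05 and 0.00228; 1.35 at 72 h without 72 h GDC-0623 replicate 1). Probe set 1423250_a_at rose by 1.54 and 1.14 (adjusted p = 6.32e-06 and 0.0037; 0.87 at 72 h without that array). The dimmest, 1438303_at, rose by 1.21 at 24 h (adjusted p = 3.42e-05), while its 72 h change of 0.55 missed the threshold (95% interval 0.11 to 0.99, adjusted p = 0.0825). The 72 h change passed it under 3 of 13 alternatives (adjusted p = 0.027 to 0.0442) and was 0.34 (adjusted p = 0.211) without 72 h GDC-0623 replicate 1. On each of the 4 probe sets, 72 h GDC-0623 replicate 1 gave the highest value of its group. At 72 h, GDC-0623 values of 5.82 and 5.84 on 1450923_at and of 5.69 and 5.63 on 1423250_a_at lay in the background range. Probe set 1438303_at lay there on every array. With time under GDC-0623, 1438303_at was called lower at 72 h (−0.71, adjusted p = 0.0376). The same comparison missed the threshold on 1450923_at (−0.70, adjusted p = 0.197) and on 1423250_a_at (−0.40, adjusted p = 0.254).

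**Figure D2:**
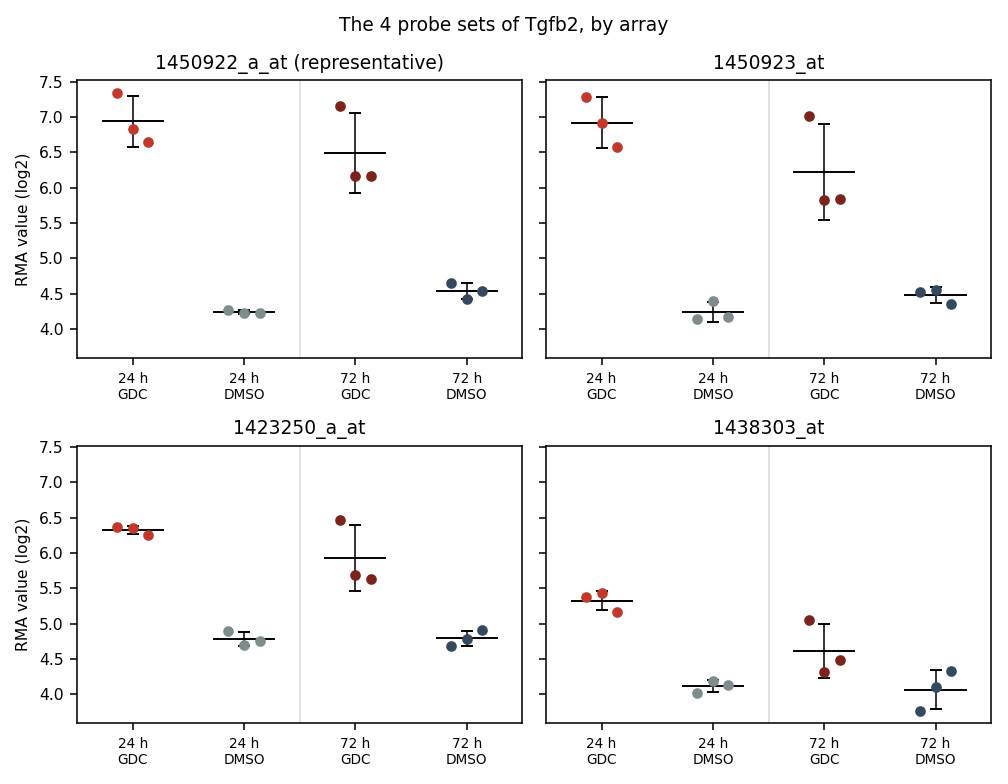
RMA values (log2, shared y axis) of the 4 Tgfb2 probe sets on each array (points), with group mean (line) and SD (bar), for GDC-0623 and DMSO at 24 h and 72 h. At 24 h the GDC-0623 arrays lie above the DMSO arrays in every panel, and 1 array of the 72 h GDC-0623 group stands above the other 2.

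Tgfb3, the ligand known from palate fusion, has 1 probe set on the array. It measured 9.54, 9.51 and 9.22 with GDC-0623 and 7.74, 7.72 and 7.62 with DMSO at 24 h. At 72 h the values were 9.04, 8.97 and 8.83 with GDC-0623 and 7.91, 7.99 and 7.98 with DMSO. The groups did not overlap at either time. The change was 1.73 ± 0.09 at 24 h (3.32-fold, adjusted p = 9.77e-06) and 0.99 ± 0.08 at 72 h (1.98-fold, adjusted p = 8.86e-05; 0.94 without 72 h GDC-0623 replicate 1).

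The drug effect on Tgfb3 was smaller at 72 h than at 24 h, with a difference of −0.74 ± 0.13 (adjusted p = 0.0067), and this call held under all 19 alternatives (−0.79 without 72 h GDC-0623 replicate 1). The 4 group means were 9.42 ± 0.18 in 24 h GDC-0623, 8.95 ± 0.11 in 72 h GDC-0623, 7.96 ± 0.04 in 72 h DMSO and 7.69 ± 0.06 in 24 h DMSO, and each differed from its neighbour. The GDC-0623 level at 72 h was 0.48 below that at 24 h (adjusted p = 0.0283), and the DMSO level was 0.27 higher at 72 h (adjusted p = 0.0329). Both time effects were small, and leaving out single arrays or changing the processing ended the first call under 4 of 14 alternatives and the second under 10 of 14.

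Tgfb1, the main TGF-beta ligand of immune cells and wound healing, moved little. Its values at 24 h were 7.04, 6.91 and 7.14 with GDC-0623 and 6.76, 6.96 and 6.81 with DMSO, and these ranges overlapped. At 72 h they were 7.10, 7.14 and 7.25 with GDC-0623 and 6.98, 6.94 and 6.90 with DMSO, without overlap. The differences of 0.19 (95% interval −0.01 to 0.38, adjusted p = 0.183) and 0.22 (0.05 to 0.40, adjusted p = 0.0765) both missed the threshold. The first passed after each array was shifted by the hybridization controls (0.34, adjusted p = 0.0467), and the second after a filter on dim probe sets (adjusted p = 0.0309). The group means were 7.16 ± 0.08 in 72 h GDC-0623, 7.03 ± 0.12 in 24 h GDC-0623, 6.94 ± 0.04 in 72 h DMSO and 6.84 ± 0.10 in 24 h DMSO, and no comparison between neighbours in this order that was made passed the test. The other probe set, 1445360_at, lay between 3.87 and 4.23 on every array, in the background range.

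Among the receptors, Tgfbr2, the type II receptor that binds the ligand first, rose at both times. Its values at 24 h were 10.58, 10.43 and 10.14 with GDC-0623 and 9.30, 9.32 and 9.33 with DMSO. At 72 h they were 11.34, 11.07 and 10.96 with GDC-0623 and 9.72, 9.68 and 9.78 with DMSO. No GDC-0623 array reached down to a DMSO array of the same time. The change was 1.07 ± 0.11 at 24 h (2.09-fold, adjusted p = 0.000179) and 1.40 ± 0.10 at 72 h (2.63-fold, adjusted p = 4.88e-05; 1.29 without 72 h GDC-0623 replicate 1). Both calls held under all 14 alternatives.

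Tgfbr2 also rose with culture time under both treatments. The 72 h level was 0.74 ± 0.13 above the 24 h level under GDC-0623 (adjusted p = 0.0115) and 0.41 ± 0.06 above it in DMSO (adjusted p = 0.00459), so the order of the group means was 11.12 ± 0.20 in 72 h GDC-0623, 10.38 ± 0.22 in 24 h GDC-0623, 9.73 ± 0.05 in 72 h DMSO and 9.32 ± 0.02 in 24 h DMSO. The middle groups of this order, which differ in both drug and time, were not compared. Each time call was lost under 1 of 14 alternatives. The drug effects at 72 h and 24 h did not differ by the test on this probe set (0.33, 95% interval −0.01 to 0.67, adjusted p = 0.361).

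A dimmer Tgfbr2 probe set, 1425444_a_at, measured 6.40, 6.34 and 6.27 with GDC-0623 and 6.11, 5.96 and 5.81 with DMSO at 24 h. At 72 h it measured 7.43, 6.97 and 7.23 with GDC-0623 and 6.25, 6.13 and 6.19 with DMSO. It was higher by 0.38 at 24 h (adjusted p = 0.017) and by 1.02 at 72 h (adjusted p = 0.000412; 0.91 without 72 h GDC-0623 replicate 1), and here the difference of the effects passed the threshold (0.64, adjusted p = 0.0441). The 24 h call was lost under 4 of 13 alternatives and that of the difference under 11 of 18. The DMSO values at both times and the 24 h GDC-0623 value of 6.27 lay in the background range. The remaining probe set, 1422019_at, lay between 2.71 and 2.98 on all arrays.

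**Figure D3:**
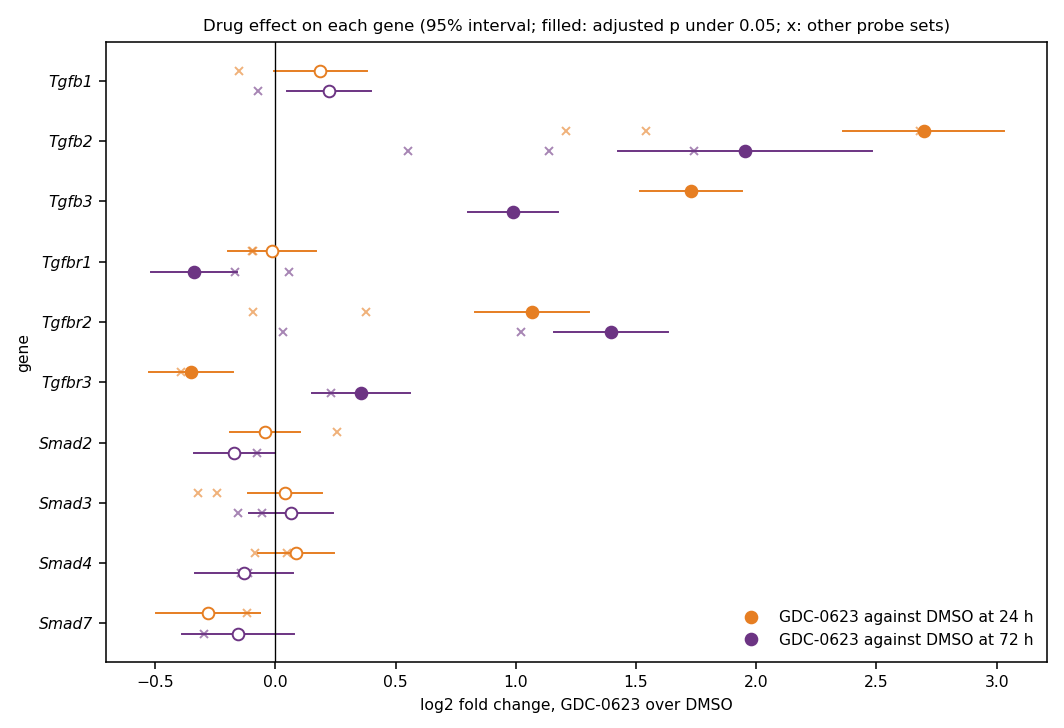
Log2 fold change of GDC-0623 over DMSO (x axis) for each gene at 24 h and 72 h, with the 95% interval of the limma fit (3 arrays per group). Filled circles passed an adjusted p of 0.05, open circles did not, and crosses are the other probe sets of the gene. Tgfb2, Tgfb3 and Tgfbr2 lie to the right at both times, and the intervals of Tgfbr3 lie on opposite sides of 0.

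Tgfbr3, or betaglycan, is a co-receptor with no kinase that presents ligand to Tgfbr2. Its direction differed between the time points. At 24 h it measured 9.42, 9.36 and 9.35 with GDC-0623 and 9.86, 9.67 and 9.65 with DMSO, and at 72 h 10.60, 10.38 and 10.36 with GDC-0623 and 10.15, 10.09 and 10.03 with DMSO. The GDC-0623 arrays thus lay below all DMSO arrays at 24 h and above all of them at 72 h. The change was −0.35 ± 0.08 at 24 h (adjusted p = 0.0135) and 0.36 ± 0.09 at 72 h (adjusted p = 0.0211; 0.28, adjusted p = 0.0463, without 72 h GDC-0623 replicate 1).

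The difference of the drug effects on Tgfbr3 was 0.71 ± 0.12 (adjusted p = 0.00546). Over all genes, 1.62% were called higher and 1.46% lower in this comparison, and among the 10 genes Tgfbr3 was higher and Tgfb3 lower. Each single effect on Tgfbr3 was small and was lost under some settings. The 24 h effect was −0.28 (adjusted p = 0.0506) without 24 h DMSO replicate 1, and −0.20 (adjusted p = 0.326) after the shift by hybridization controls, under which the difference of effects was 0.57 (adjusted p = 0.0578). The 72 h effect had an adjusted p of 0.0691 without 72 h DMSO replicate 2 and 0.079 without 72 h DMSO replicate 3, and was 0.155 when the probe sets of the gene were averaged.

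With culture time, Tgfbr3 rose by 1.07 ± 0.09 under GDC-0623 (2.1-fold, adjusted p = 0.000187) and by 0.36 ± 0.08 in DMSO (adjusted p = 0.0201). The rise under GDC-0623 held under all 14 alternatives, and that in DMSO was lost under 5. The GDC-0623 groups held the highest and the lowest mean, 10.45 ± 0.13 at 72 h and 9.38 ± 0.04 at 24 h, and the DMSO groups lay between them at 10.09 ± 0.06 at 72 h and 9.73 ± 0.12 at 24 h. The second probe set, 1425620_at, was lower at 24 h by −0.39 (adjusted p = 0.00981), and its 72 h difference of 0.23 missed the threshold (95% interval −0.16 to 0.63, adjusted p = 0.424) and was 0.07 without 72 h GDC-0623 replicate 1. The 24 h call of this probe set was lost under 2 of 13 alternatives. Its values of 4.87 to 6.02 lay in the background range on all arrays.

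Tgfbr1, the type I receptor kinase that phosphorylates Smad2 and Smad3, did not differ by the test at 24 h. It measured 8.59, 8.67 and 8.44 with GDC-0623 and 8.52, 8.67 and 8.55 with DMSO (−0.01, 95% interval −0.20 to 0.17, adjusted p = 0.94). At 72 h it measured 8.18, 8.26 and 8.20 with GDC-0623 and 8.45, 8.61 and 8.59 with DMSO, so that the GDC-0623 arrays were lower without overlap (−0.34 ± 0.08, adjusted p = 0.0157). This call was lost without 72 h DMSO replicate 2 (adjusted p = 0.0674) or replicate 3 (0.0609), and when the 3 probe sets were averaged (−0.15, adjusted p = 0.283). It was −0.32 (adjusted p = 0.0387) without 72 h GDC-0623 replicate 1. The 3 upper group means lay close together, at 8.57 ± 0.12 in 24 h GDC-0623, 8.58 ± 0.08 in 24 h DMSO and 8.55 ± 0.09 in 72 h DMSO, with 72 h GDC-0623 lowest at 8.21 ± 0.04. The other 2 probe sets lay between 3.18 and 3.76 on all arrays, in the background range.

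None of the 4 Smads was called in any of the 5 comparisons by its representative probe set. Smad2 and Smad3, the Smads that carry the TGF-beta signal, differed by −0.04 (95% interval −0.19 to 0.10) and 0.04 (−0.11 to 0.19) at 24 h. Their 72 h differences were −0.17 (−0.34 to just under 0) and 0.07 (−0.11 to 0.24). Smad4, the partner of both, differed by 0.09 (−0.07 to 0.24) at 24 h and −0.13 (−0.33 to 0.07) at 72 h. No bound of these 95% intervals lay farther from 0 than −0.34. Over the 4 Smads and 5 comparisons, 4 of 20 limma tests had an unadjusted p under 0.05, and Smad7 at 24 h and Smad3 with time in DMSO passed the adjusted threshold under some alternatives.

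Smad7, the inhibitory Smad that is itself a known target of the pathway, measured 7.53, 7.86 and 7.77 with GDC-0623 and 7.90, 8.04 and 8.06 with DMSO at 24 h. At 72 h it measured 7.68, 7.76 and 7.57 with GDC-0623 and 7.98, 7.86 and 7.64 with DMSO. The groups did not overlap at 24 h and overlapped at 72 h. The 24 h difference of −0.28 ± 0.10 missed the threshold (95% interval −0.49 to −0.07, adjusted p = 0.0795) but passed it under 4 of 14 alternatives, with adjusted p-values of 0.0297 to 0.044. The 72 h difference was −0.16 (−0.39 to 0.08, adjusted p = 0.354).

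Of the other Smad probe sets, 2 dim ones of Smad3 were called lower at 24 h. Probe set 1450471_at measured 4.97, 4.84 and 4.92 with GDC-0623 and 5.18, 5.12 and 5.16 with DMSO (−0.24, adjusted p = 0.0378), and 1450472_s_at measured 4.62, 4.66 and 4.36 with GDC-0623 and 4.92, 4.84 and 4.85 with DMSO (−0.32, adjusted p = 0.0355). Both lay in the background range, the first call was lost under 8 of 13 alternatives and the second under 6 of 12, and neither was made at 72 h. In the DMSO time comparison 1442062_at of Smad2 was higher by 0.32 (adjusted p = 0.016) and 1450471_at of Smad3 lower by −0.22 (adjusted p = 0.0479) at 72 h. With GDC-0623 at 24 h, 1442062_at of Smad2 was higher by 0.26 without overlap, against −0.04 on the representative probe set. This rise missed the threshold (limma adjusted p = 0.0644), and the 72 h difference was −0.08. On 1422486_a_at and 1422485_at of Smad4 the drug differences were 0.05 and −0.08 at 24 h and −0.11 and −0.14 at 72 h. On 1443771_x_at of Smad7 they were −0.12 at 24 h and −0.30 at 72 h. None of these drug differences was called.

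Culture time was compared within each treatment. Under GDC-0623, 2 of the 10 genes were higher at 72 h than at 24 h (Tgfbr2 and Tgfbr3) and 2 were lower (Tgfb3 and Tgfbr1), against 5.79% and 3.11% of all genes. The fall of Tgfbr1 by −0.35 (adjusted p = 0.0386) was lost whenever 1 array was left out. In DMSO, 4 of the 10 genes were higher at 72 h (Tgfb2, Tgfb3, Tgfbr2 and Tgfbr3) against 8.41% of all genes, and the other 6 were not called. These 4 changes in DMSO lay between 0.27 and 0.41 on the log2 scale, and 1 or 2 of the 4 calls were left when any single array was left out. No other probe set of Tgfb2, Tgfbr2 or Tgfbr3 was called for time in DMSO. On Tgfb2 probe sets 1423250_a_at and 1438303_at this change was 0.01 and −0.05, and the Tgfb2 levels in DMSO lay in the background range.

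The patterns most like those of the 3 genes with the largest drug effects were searched among 9483 genes, by Pearson correlation over the 12 arrays. The arrays share the 4 groups, so the correlations mostly follow group means and are given as a description. For Tgfb2 the closest were Palld, which encodes an actin-binding protein, Dlgap4, and Ckb, a creatine kinase (each r = 0.99). Palld rose by 1.49 at 24 h and 1.04 at 72 h, and Ckb by 1.73 and 1.35. For Tgfb3 they were 2310022B05Rik, Trappc1 and Jund, an AP-1 subunit (r = 0.99, 0.99 and 0.98), and Jund rose by 1.5 and 0.79. For Tgfbr2 they were H2aw, a histone gene, Adgrg6, an adhesion receptor, and Scara5, a scavenger receptor that binds ferritin (each r = 0.99), and Scara5 rose by 2.42 and 2.86.

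Around the 10 core genes, 73 further pathway genes were analysed. With GDC-0623, 27 of the 73 were higher and 8 lower at 24 h, and 27 were higher and 9 lower at 72 h. The shares of all genes were 13.3% higher and 8.23% lower at 24 h and 13.8% and 12.4% at 72 h, so the counts of lower genes were near the background. The median log2 fold change of the 73 was 0.07 at 24 h and 0.16 at 72 h, against −0.03 over all genes at both times. Targets that TGF-beta is known to induce made up 14 of the 27 higher genes at 24 h and 12 of the 27 at 72 h.

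Genes of ligand latency and release moved in both directions: 3 of 11 were higher and 1 lower at 24 h, and 4 were higher and 1 lower at 72 h, against 13.3% and 8.23% of all genes at 24 h and 13.8% and 12.4% at 72 h. Itgb8, a subunit of an integrin that frees latent ligand, averaged 7.11 ± 0.21 with GDC-0623 and 5.56 ± 0.07 with DMSO at 24 h (1.55 ± 0.10, adjusted p = 2.16e-05). Its 72 h difference was 0.57 and missed the threshold (adjusted p = 0.0664), but passed it under 4 of 14 alternatives (adjusted p = 0.0239 to 0.0495). Without 72 h GDC-0623 replicate 1 it was 0.34 (adjusted p = 0.143). The DMSO levels of Itgb8 at 24 h and of Emilin1 at both times lay in the background range. So did the 24 h GDC-0623 mean of Emilin1 (5.63). Thbs1, whose product thrombospondin can activate latent ligand, rose by 0.91 ± 0.09 at 24 h and 2.26 ± 0.11 at 72 h (adjusted p = 0.000216 and 1.08e-05). Emilin1, a matrix protein that restrains processing of the ligand precursor, rose by 1.00 at 24 h and 1.46 at 72 h (adjusted p = 0.00525 and 0.000554), and the binding protein Ltbp4 by 0.50 at 72 h (adjusted p = 0.0141). Ltbp1, which ties latent ligand to the matrix, fell by 0.69 at 24 h and by 1.13 at 72 h (adjusted p = 0.000155 and 0.000986); of its 3 probe sets, 1 was called at 24 h and 2 at 72 h.

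Of 14 regulators of the receptors, 3 were higher and 2 lower at 24 h, and 3 were higher and 3 lower at 72 h, beside the same shares of all genes (13.3% and 8.23%, then 13.8% and 12.4%). Pmepa1, a TGF-beta target that holds Smads away from the receptor, averaged 8.08 ± 0.12 with GDC-0623 and 6.84 ± 0.08 with DMSO at 24 h and rose by 1.25 ± 0.08, then by 1.60 ± 0.12 at 72 h. All 3 of its probe sets were called higher at both times. Cav1, the caveolar coat protein involved in receptor turnover, rose by 0.50 and 0.66. Smurf1, a ubiquitin ligase of the receptor complex, rose by 0.30 at 24 h, and Tgfbrap1, a receptor-associated protein, by 0.29 at 72 h, a call that was lost when any of 5 of the 6 arrays was left out. Dab2, an endocytic adaptor that links receptors to Smads, fell by 0.50 at 24 h and by 0.93 at 72 h.

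Of 14 Smad partners and other Smads, 3 were higher and 2 lower at 24 h, and 2 were higher and 2 lower at 72 h. These counts lie near the shares of all genes (13.3% and 8.23% at 24 h, 13.8% and 12.4% at 72 h). Smad6, an inhibitory Smad that acts mainly on BMP receptors, averaged 8.71 ± 0.03 with GDC-0623 and 6.55 ± 0.22 with DMSO at 24 h, and 7.61 ± 0.22 with GDC-0623 and 5.29 ± 0.15 with DMSO at 72 h. It rose by 2.17 ± 0.10 and 2.32 ± 0.12 (adjusted p = 5.3e-06 and 1.32e-05), with the DMSO level at 72 h in the background range. Ski, a repressor of Smad complexes, rose by 0.54 and 0.95, and its relative Skil by 0.42 at 24 h. Tgif1, another corepressor, fell by 0.91 at 24 h and by 1.25 at 72 h. Trim33, a ubiquitin ligase that targets Smad4, fell by 0.27 at 72 h, and this call was lost when any single array was left out.

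In the activin arm, which shares Smad2 and Smad3, 2 of 11 genes were higher at 24 h with the other 9 not called, and 3 were higher and 1 lower at 72 h. Of all genes, 13.3% were higher at 24 h, and 13.8% were higher and 12.4% lower at 72 h. The type I receptor Acvr1b rose by 0.52 and 0.35 and the type II receptor Acvr2a by 0.41 and 0.71. Inhba, the activin A subunit, averaged 9.94 ± 0.06 with GDC-0623 and 9.44 ± 0.11 with DMSO at 72 h (0.49, adjusted p = 0.00355). Of the 2 probe sets of Inhba and of Acvr1b, 1 each was called at 72 h, and both calls were lost when the probe sets of the gene were averaged. The other called genes of these lists, named after their values were seen, were Usp15 (−0.26) and Tgif2 (−0.25) at 24 h, and Itgb6 (0.34), Bambi (−0.48), Strap (−0.29) and Acvr2b (−0.29) at 72 h. Each of these 6 calls was lost under 3 to 7 of its alternatives, and Itgb6, Bambi and Acvr2b lay in the background range in every group.

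Of 18 measured targets that TGF-beta is known to induce, 14 were higher with GDC-0623 at 24 h and the other 4 were not called, and 12 were higher and 1 lower at 72 h, against 13.3% of all genes higher at 24 h and 13.8% higher and 12.4% lower at 72 h. The list was written with earlier results of these data known, so this count is not independent evidence of its direction. Its median log2 fold change was 0.68 at 24 h and 0.86 at 72 h, against −0.03 over all genes. Acta2, smooth muscle actin, averaged 8.47 ± 0.28 with GDC-0623 and 6.02 ± 0.44 with DMSO at 24 h (2.45 ± 0.21), and rose by 3.58 ± 0.26 at 72 h, although 1 of its 3 probe sets was called. Tgfbi, a matrix adhesion protein, rose by 2.60 ± 0.34 at 24 h and by 1.20 ± 0.35 at 72 h, where the adjusted p was 0.0373. The 72 h call was lost without 72 h GDC-0623 replicate 1 (0.78, adjusted p = 0.0732), 72 h DMSO replicate 2 (1.09, 0.129) or 72 h DMSO replicate 3 (1.04, 0.125). This call was also lost with a trended robust prior (adjusted p = 0.054) and with the mean of the probe sets (0.98, adjusted p = 0.0637). Of the 4 Tgfbi probe sets, 4 were called higher at 24 h and 2 at 72 h. The DMSO levels of Acta2 and Tgfbi lay in the background range at both times.

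Ccn2, a matricellular growth factor, averaged 9.63 ± 0.20 with GDC-0623 and 8.05 ± 0.18 with DMSO at 24 h, and 10.57 ± 0.54 with GDC-0623 and 6.87 ± 0.19 with DMSO at 72 h. It rose by 1.58 ± 0.12 and by 3.70 ± 0.23. Postn, which encodes the matrix protein periostin, rose by 1.60 at 24 h, and averaged 9.32 ± 0.82 with GDC-0623 and 4.58 ± 0.16 with DMSO at 72 h (4.74 ± 0.33, adjusted p = 3.35e-05). Its DMSO means of 4.28 at 24 h and 4.58 at 72 h lay in the background range, as did its 24 h GDC-0623 mean of 5.88. The 24 h difference thus lies within that range, and the 72 h difference is set against background and may be understated. The collagen gene Col1a2 rose by 1.45 at 24 h and 1.49 at 72 h, and Lox, which crosslinks collagen, by 1.47 at 24 h over a DMSO level in the background range. The lower member at 72 h was Cdkn1a, a cell cycle inhibitor, which is named here after its values were seen (−0.38, adjusted p = 0.0212; it was higher by 0.47 at 24 h). The 72 h call was lost under 4 of 14 alternatives. Of the 18 targets, 4 (Acta2, Col1a1, Col1a2 and Fn1) are mesenchymal markers as well, and of those markers 5 of 9 were higher at 24 h and 6 of 9 at 72 h, against 13.3% and 13.8% of all genes. Their mean level was 9.20 to 9.30 on the 24 h GDC-0623 arrays against 8.39 to 8.55 on the 24 h DMSO arrays, and 9.50 to 9.78 on the 72 h GDC-0623 arrays against 8.61 to 8.67 on the 72 h DMSO arrays. The part of this shift in the target list was not tested. The mean level of 8 endothelial markers was 3.5 to 3.68 over all arrays.

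**Figure D4:**
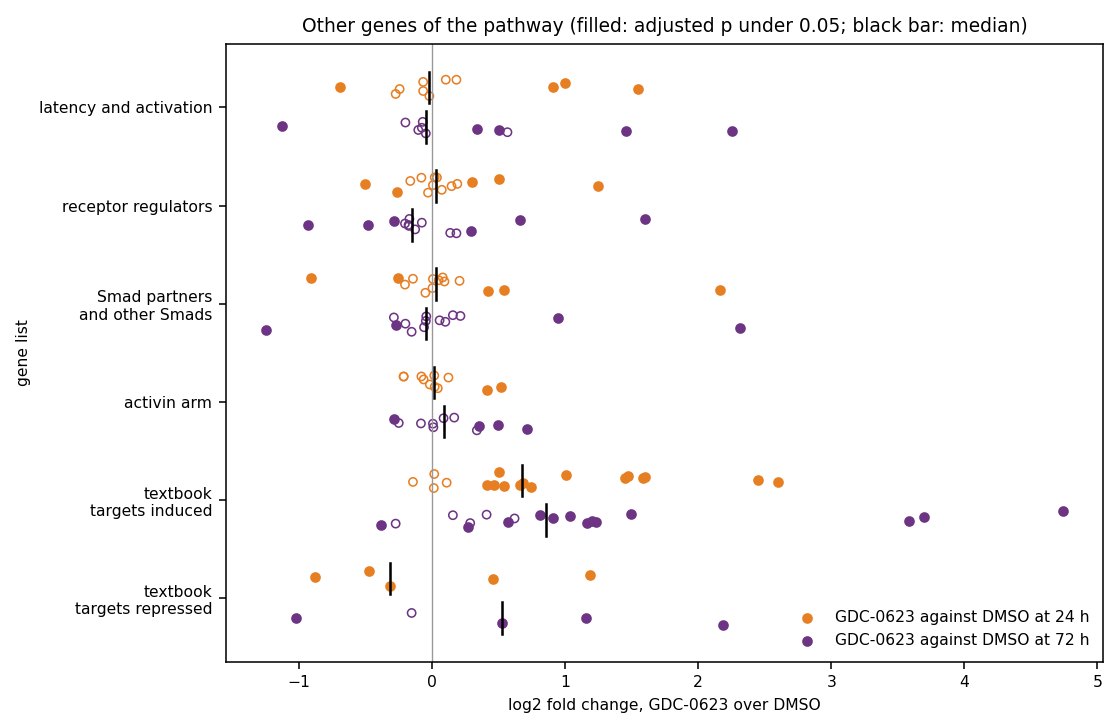
Log2 fold change of GDC-0623 over DMSO (x axis) at 24 h and 72 h for the measured genes of 6 pathway lists (y axis); filled circles passed an adjusted p of 0.05, open circles did not, and the black bar is the list's median. The induced targets sit mostly to the right of 0, with medians of 0.68 and 0.86, and the other lists spread to both sides.

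Of 5 targets that TGF-beta is known to repress, 2 were higher and 3 lower at 24 h, and 3 were higher and 1 lower at 72 h. Over all genes the shares were 13.3% and 8.23% at 24 h and 13.8% and 12.4% at 72 h. Myc, which is also a known target of the ERK pathway, averaged 9.78 ± 0.26 with GDC-0623 and 10.66 ± 0.02 with DMSO at 24 h, and fell by 0.88 at 24 h and by 1.02 at 72 h. Id2 and Id3, inhibitors of differentiation factors, were higher with GDC-0623 than with DMSO at both times. The differences were 1.18 and 2.18 for Id2 and 0.46 and 1.16 for Id3. In the same comparisons Id1 was lower by 0.47 at 24 h and higher by 0.53 at 72 h, with adjusted p-values of 0.0193 and 0.0439. Each Id1 call was lost when any of 5 of its 6 arrays was left out. Cdc25a, a cell cycle phosphatase named after its values were seen, was lower by −0.31 at 24 h, a call lost under 4 of 14 alternatives.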

How the data were processed

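RNA of 12 MC38 cultures was hybridized to Affymetrix mouse genome arrays after biotin labelling from the 3′ end. The authors deposited log2 values made by RMA, whose version is not given in the sources used here. Probes near the 3′ end report transcripts that share it. Of 45101 probe sets, 64 controls were left out. A gene name was taken from the platform annotation where a probe set had 1 symbol (34945 probe sets; 932 had several and 9160 none).

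Groups were taken from the sample labels. Each drug or time comparison was fitted on its own 6 arrays, and the difference of the drug effects on all 12, with limma 3.58.1 in R 4.3.3 (lmFit and eBayes). P-values were two-sided and adjusted by Benjamini-Hochberg over all 45037 probe sets, with a threshold of 0.05. Folds rest on RMA values, which compress changes of dim probe sets. The number of arrays limits the precision.

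The genes, the pathway and marker lists and the tests were chosen with earlier results of these data known. Beyond the 10 genes, up to 4 called genes per list and drug comparison were named, those with the largest change and a mean of at least 6 in the higher group. For each of the 10 genes called with a log2 change of at least 1, the 3 genes of most similar pattern were named.

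The tests were tried on simulated arrays with independent noise and planted changes. These held no outlying array and no pairing of arrays, and no result here rests on them. Alternatives were 1 fit over all 12 arrays, a replicate block, a filter on dim probe sets (above 5 on at least 3 arrays), a further quantile normalization, shifting the arrays by their hybridization controls, a trended robust prior, array weights, the mean of a gene's probe sets, and leaving out each array in turn. Figures were drawn with matplotlib 3.10.9 in Python 3.11.15.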

Additional observations from a re-analysis of the deposited data

Results flagged for a closer look

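The drug effect differed between 72 h and 24 h by the test of the difference itself for 2 of the 10 core genes, for 9 of the 73 pathway genes and for 1 further probe set, all given as the 72 h effect minus the 24 h effect on the log2 scale with limma's adjusted p. Of the 10 core genes, Tgfb3 had a difference of −0.74 (adjusted p = 0.0067) and Tgfbr3 one of 0.71 (adjusted p = 0.00546). Probe set 1425444_a_at of Tgfbr2 had a difference of 0.64 (adjusted p = 0.0441).

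Of the 73 pathway genes, 7 had a higher and 2 a lower effect at 72 h, against 1.62% and 1.46% of all genes. The differences were 1.35 for Thbs1 (adjusted p = 0.000439), 0.71 for Inhba (adjusted p = 0.00627), 2.11 for Ccn2 (adjusted p = 0.00164) and 3.14 for Postn (adjusted p = 0.000858). Id2 and Id1 each had a difference of 1.00 (adjusted p = 0.0289 for Id2 and 0.0261 for Id1). The collagen gene Col1a1 had one of 0.89 (adjusted p = 0.000941), with group means of 4.18 to 5.09 that all lay in the background range. The lower effects were those on the cell cycle inhibitors Cdkn1a, at −0.85 (adjusted p = 0.00677), and Cdkn2b, at −0.69 (adjusted p = 0.027). From 24 h to 72 h, Id2 fell by 1.85 in DMSO and by 0.85 under GDC-0623, and Id1 by 2.11 and 1.12. Cdkn1a rose by 1.01 in DMSO and was not called under GDC-0623 (0.16), and Cdkn2b rose by 1.28 and 0.59. When the probe sets of Inhba were averaged, its difference was 0.26 (adjusted p = 0.197). The calls of Id1, Id2 and Cdkn2b were lost when some single arrays were left out.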

How the results depend on the processing

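The drug effects on Tgfb2, Tgfb3 and Tgfbr2 kept their direction and passed the threshold at both times under all 14 alternatives. Of the 10 core genes, 1 was lower at 24 h, against 2 with the replicate block, the filter on dim probe sets, the further quantile normalization or the trended prior, and 0 with the shift by hybridization controls. At 72 h, the 1 lower gene became 0 with the mean of probe sets. Under GDC-0623, 2 genes were lower with time, against 1 with the mean of probe sets. In DMSO, 4 were higher with time, against 2 with 1 fit over all arrays or with the control shift and 1 with the mean of probe sets. The difference of drug effects called 1 gene higher, against 0 with the control shift. Of the pathway genes, 8 were lower at 24 h, against 4 with the control shift and 13 with the trended prior.

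Some values near 0 changed sign. With the control shift, Tgfbr1 was at 0.14 and Smad2 at 0.11 at 24 h, Tgfbr1 at 0.003 with time in DMSO, and the difference of effects at −0.10 for Tgfb1, −0.11 for Smad3 and −0.016 for Smad7. With the mean of probe sets, Smad2 was at 0.11 and Smad3 at −0.18 at 24 h, Smad3 at −0.047 at 72 h, Tgfb1 at −0.027 with time in DMSO, and the difference for Smad7 at −0.028. With array weights, Tgfbr1 was at 0.0037 at 24 h. The causes were not tested.

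Leaving out 1 array at a time gave 1 to 2 genes higher with time in DMSO, 1 to 2 higher and 0 to 2 lower with time under GDC-0623, 0 to 1 lower at 24 h and at 72 h, and 1 to 2 with a lower difference of effects. Pathway genes lower numbered 4 to 7 at 24 h and 4 to 8 at 72 h, against 9 with all arrays. The values that changed sign ranged from −0.065 to 0.05 for Tgfbr1 at 24 h, −0.06 to 0.02 for Tgfbr1 and −0.025 to 0.105 for Smad4 with time in DMSO, −0.145 to 0.02 for Smad7 with time under GDC-0623, and, for the difference of effects, −0.015 to 0.058 for Smad3 and −0.023 to 0.092 for Tgfb1.

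Correlations of the deviations of same-numbered arrays were weak but all positive, from 0.01 to 0.29. Arrays with different numbers gave −0.24 to 0.11. The same-number correlation was over 0.1 in 1 of 3 pairs in each drug comparison and in 2 of 3 in each time comparison. Whether same-numbered arrays are paired was not settled, and the main fits left pairing out. With the replicate block, the drug effect on Smad7 at 24 h had an adjusted p of 0.044 and the fall of Tgfb2 with time under GDC-0623 one of 0.0406. The control shift moved the median of all probe sets at 24 h from −0.04 to 0.11 and the share of called probe sets that were higher from 55.6% to 87.5%, for time under GDC-0623 from 65.5% to 33.2%, for the difference of effects from 55.8% to 36.5%, and for time in DMSO from 58.8% to 76.2%. Where both groups of a comparison lay in the background range, the values carry little information on direction. This covers Tgfb2 and Postn with time in DMSO, the dim probe sets of Tgfbr1 and Smad3, and 1422019_at of Tgfbr2. Where only the DMSO values lay there, as for Postn at 72 h, they limit what can be said on the size of the change.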
